A study of Mus musculus with 9 samples.

Results

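The comparison described here set C1498 cells carrying hairpin D against Zeb1 (shZeb1_D, replicates 13, 14 and 15) against C1498 cells carrying a negative control construct (Scr, replicates 7, 8 and 9). These are 6 of the 9 arrays of the series, and every one of the 19572 probe sets with 1 gene symbol was compared, out of 22206 on the array; they stand for 19505 gene symbols. C1498 is a mouse leukaemia cell line, and the series title places the work in acute myeloid leukaemia. Each group was exposed overnight to lentivirus that carried GFP, a green fluorescent marker, together with either the hairpin or the control construct. GFP-positive cells were isolated 2 weeks later, so the control cells were infected and sorted too. Total RNA was labelled with biotin and hybridised to 1-colour arrays. The third group, shZeb1_C (replicates 10, 11 and 12), carried a different hairpin against the same gene and entered the fit to estimate the spread. The labels name no strain, clone or separate infection for any array, so every p-value reflects only how far these samples spread, and that spread may be technical. The title of the series asks how ZEB1 in leukaemia cells acts on the immune niche of the bone marrow, on T cells and on Th17 cells.

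Zeb1 encodes a transcription factor with zinc fingers near both ends and a homeodomain between them. It binds E-box sequences such as CAGGTG and recruits corepressors, and it is best known for silencing epithelial genes during epithelial-mesenchymal transition. In lymphocytes and leukaemias it also acts outside that programme, as a regulator of cytokine and differentiation genes. A short hairpin RNA lowers its target by guiding cleavage of the messenger RNA, and a partial fall leaves part of the protein in the cell.

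The 6 arrays had median levels of 6.97 to 7.16 (log2 of the RMA signal, the unit of every level below), and pairs of Scr and shZeb1_D arrays correlated at 0.9693 to 0.9885 over probe sets. Arrays of the same group did not all lie together. A first component of the within-group differences over all 9 arrays of the series held 57.9% of their variance. It placed Scr replicate 8 (0.387), shZeb1_D replicates 14 (0.305) and 15 (0.188) and shZeb1_C replicate 12 (0.518) on one side. Scr replicates 7 (-0.183) and 9 (-0.204), shZeb1_D replicate 13 (-0.494) and shZeb1_C replicates 10 (-0.248) and 11 (-0.27) lay on the other. The part of this axis in the results was not tested. The array table holds no detection calls, so a level under the median probe set mean of 7.10 may be near background. For a gene with a group mean there, the log2 fold change is a difference of RMA levels and its fold is not given. Of the 60 called genes that the naming rule picked 17 are of this kind.

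The label was set against the defining markers of a myeloid blast. Levels of different probe sets cannot be ranked against each other on an array, so each is given only as above or below the median level. Of 10 myeloid blast markers Ptprc, the pan-leukocyte antigen CD45, and Mpo lay above it, with Scr means of 14.87 and 7.61. Spi1, Cebpa, Itgam, Cd33, Csf1r, Flt3, Kit and Cd34 averaged between 4.78 and 6.53 in Scr, where presence and absence cannot be told apart without detection calls. Of 9 T and NK cell markers 6 lay above it and the others did not. Among the 6 were Cd3g at 15.53, Cd3e at 14.65 and Cd3d at 12.21, which are CD3 chains of the T cell receptor complex. Another was the kinase Zap70 at 11.39. The mean level of those 9 was 9.48 to 9.59 over the Scr arrays and 9.54 to 9.78 over the shZeb1_D arrays. The groups thus overlapped for the T and NK list. The B cell list had 0 of 4 members above the median level and the epithelial list 0 of 6. None of the 7 marker lists held a called gene in shZeb1_D against Scr. The cells are called C1498 below, as labelled.

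Zeb1 itself was lower in shZeb1_D. Its level was 10.52, 10.29 and 10.56 in Scr replicates 7, 8 and 9, against 9.56, 9.26 and 9.40 in shZeb1_D replicates 13, 14 and 15. The highest shZeb1_D array lay below the lowest Scr array, and the mean fell to 48.3% of Scr. The log2 fold change was -1.05 ± 0.16 (SE), with a Benjamini-Hochberg adjusted p of 0.0263 in limma. An exact two-sided permutation test gave p = 0.10, the smallest that 3 arrays against 3 allow. In shZeb1_C, Zeb1 was at 10.41, 10.01 and 10.34. Leaving out any Scr array ended the call, with adjusted p of 0.0941, 0.0502 and 0.157 for replicates 7, 8 and 9. So did leaving out shZeb1_D replicate 14 (0.0835) or 15 (0.123).

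At an adjusted p under 0.05, limma called 165 of 19572 probe sets, 0.843% of those tested. Of these 78 (0.399%) were higher in shZeb1_D and 87 (0.445%) were lower. These shares are the background for every list count below. The called genes changed by 1.77-fold to 27.3-fold, with a median of 2.99-fold, and 24 rises and 24 falls passed 4-fold. These counts include the 16 rises and 17 falls with a group mean under the median level, whose folds are uncertain. In all 165 the 3 shZeb1_D arrays lay beyond the 3 Scr arrays, which was also so for 3320 probe sets, or 17.0% of those tested. The number of calls was 14 without Scr replicate 9, 17 without shZeb1_D replicate 15, 58 without Scr replicate 7, 80 without shZeb1_D replicate 14, 87 without Scr replicate 8, and 93 and 103 without shZeb1_C replicates 10 and 11. It was higher, at 169 without shZeb1_D replicate 13 and 213 without shZeb1_C replicate 12. Of the 60 named calls 10 held without Scr replicate 9, 10 without shZeb1_D replicate 15, 28 without Scr replicate 7 and 32 without shZeb1_D replicate 14. Every one of the 165 kept its sign whichever array was left out. The 12 that also stayed called were Hc, Trpm1, Amy1, Jaml, Prss16, Abcb1a, Ptpn12, Gbp7 and the predicted gene Gm1966 among the rises, and Plcd3, Zfp64 and Rab22a among the falls. Of the others 24 were lost with 1 or 2 arrays left out in turn and 129 with 3 or more. Of the named calls 8 held throughout. The call of Gimap6 was lost with 1 array left out, and those of Serpinb5, Atp8b4, Ncoa7, Ada, Aurka, Clock, Apobec1, Shtn1, Tmem121, Fam185a and Abcb1b with 2. Those of Dock8, Nav2, Olfm3, Cnrip1, Agrn, Mylip and S1pr1 were lost with 3, and those of Selplg, Il4ra, Spock2, Gbp3, Gbp4, Lgals9, Ldhd, Ppp3cc, Rai14, Tns1, Lrrc42, Map7d3 and H2al1e with 4. Zeb1 and Smarca4 lost theirs with 5, Galnt3, Gimap4, Mndal, Plin2, Tnrc18, H2al1a and H2al1f with 6, and Gimap8, St6gal1, Cers4, Etl4, Fam183b and Frmd4b with 7. Cln8, Tnf, Ctsz, Dnmt1 and Keap1 lost theirs with 8 of the 9 arrays. For each of the 60 except Hc, the array whose removal gave the highest adjusted p was Scr replicate 9 or shZeb1_D replicate 15.

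**Figure D1:**
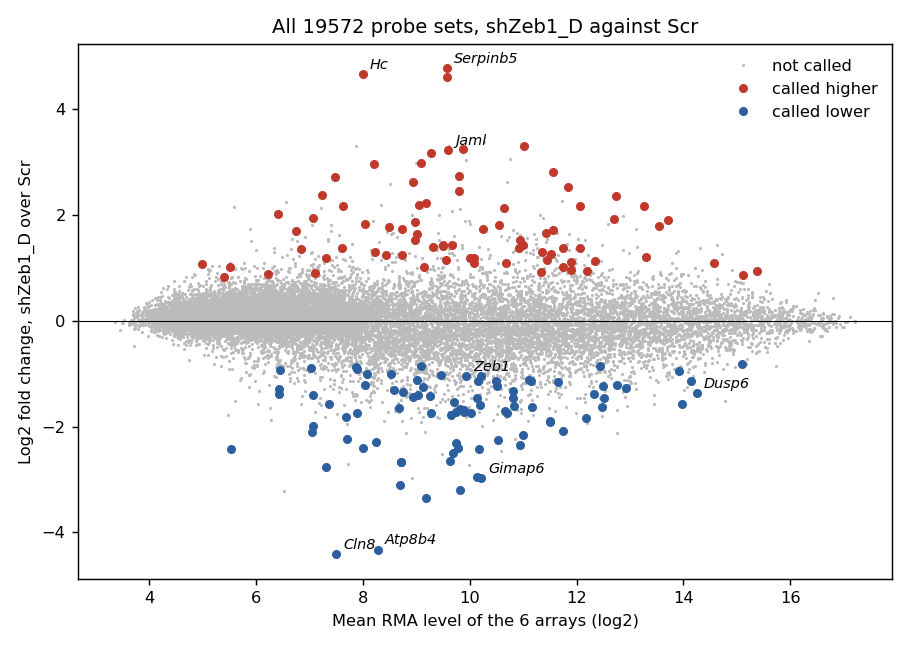
Log2 fold change of shZeb1_D over Scr (vertical axis) against the mean RMA level of the 6 arrays (horizontal axis, log2) for each of the 19572 probe sets. Grey points were not called, 78 red points were called higher and 87 blue points lower at a limma adjusted p under 0.05, and Zeb1 (-1.05) lies well inside the range of the other called falls.

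Serpinb5 and Hc rose. Serpinb5 encodes maspin, a serpin known from epithelial cells. It was at 6.58, 8.34 and 6.65 in Scr and at 11.03, 12.75 and 12.10 in shZeb1_D, a log2 rise of 4.77 ± 0.52 (SE; limma adjusted p = 0.0081, and 0.0603 without Scr replicate 9). Scr replicate 8 was the highest control, and still 2.69 below the lowest shZeb1_D array. Hc encodes complement component C5, the source of the C5a peptide that attracts neutrophils. It was at 5.92, 5.62 and 5.46 in Scr, below the median level, and at 10.56, 9.63 and 10.79 in shZeb1_D. The difference was 4.66 ± 0.30 (limma adjusted p = 0.00129), and no fold is given because the Scr level may be background. Its shZeb1_C mean was 6.33. Of 29 genes of Fc receptors and complement it was the only one called.

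Galnt3, which starts mucin-type O-glycan chains on secreted proteins, was at 7.02, 8.66 and 7.36 in Scr and at 10.43, 10.93 and 11.19 in shZeb1_D. It rose 9.00-fold (log2 3.17 ± 0.55, limma adjusted p = 0.0395, and 0.198 without Scr replicate 9). Amy1, a starch-cleaving amylase, was at 8.13, 8.44 and 8.17 in Scr and at 11.21, 11.40 and 11.84 in shZeb1_D, with a rise of 3.24 ± 0.33. The genes around Amy1 had a median change of 0.40. Galnt3 and Amy1 were separated between groups in each of the 3 arrays, as were all 165 calls. Prss16, a serine protease of thymic epithelium, rose by 2.62 ± 0.27, from Scr levels of 7.33 to 7.91 to shZeb1_D levels of 9.92 to 10.47. Prss57, another serine protease, rose by 1.63 ± 0.29. On the side of the falls, Ctsz, the lysosomal protease cathepsin Z, fell by 1.38 ± 0.25 and Hpse, heparanase, fell by 0.92 ± 0.15. The levels of Hpse, 6.84 to 7.00 in Scr and 5.71 to 6.19 in shZeb1_D, lay under the median level and may be background. Of 48 measured proteases and serpins in the fixed list 1 rose, Serpinb5, and 1 fell, Ctsz, with a median log2 fold change of 0.08 against 0.04 over all probe sets.

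Serpinb5 and Galnt3 are also the 2 named rises of largest size with the Zeb1-type E-box in their promoter window, and Ada, adenosine deaminase, is a named fall with it. Their windows are shown so that the position of the motif can be read. Each runs 5′ to 3′ on the strand of the gene, from 250 bases before to 50 after the annotated start, from RefSeq on GRCm38.p6, with CAGGTG or its reverse complement CACCTG in capitals.
Galnt3: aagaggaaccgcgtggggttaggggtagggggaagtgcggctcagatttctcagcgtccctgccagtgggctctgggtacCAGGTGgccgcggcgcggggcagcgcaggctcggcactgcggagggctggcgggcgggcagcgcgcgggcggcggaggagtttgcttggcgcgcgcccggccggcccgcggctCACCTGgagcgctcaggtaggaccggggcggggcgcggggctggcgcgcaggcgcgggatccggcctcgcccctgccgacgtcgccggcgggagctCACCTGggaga
Serpinb5: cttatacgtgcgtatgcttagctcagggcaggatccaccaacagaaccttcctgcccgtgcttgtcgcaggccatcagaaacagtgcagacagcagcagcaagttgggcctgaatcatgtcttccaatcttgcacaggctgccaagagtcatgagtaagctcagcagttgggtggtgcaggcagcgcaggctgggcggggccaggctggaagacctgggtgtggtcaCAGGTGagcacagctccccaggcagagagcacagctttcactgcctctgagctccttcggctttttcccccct
Ada: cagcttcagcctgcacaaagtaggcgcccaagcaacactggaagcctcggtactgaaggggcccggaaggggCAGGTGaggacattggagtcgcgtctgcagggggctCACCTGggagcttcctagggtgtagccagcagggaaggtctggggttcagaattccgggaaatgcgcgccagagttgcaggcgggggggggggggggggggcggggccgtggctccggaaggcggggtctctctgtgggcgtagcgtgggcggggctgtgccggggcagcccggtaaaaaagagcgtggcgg
The Galnt3 window lies at chr2:66124744-66125043 on the minus strand and holds 3 matches, of which the first begins 170 bases and the second 57 bases before the start. The Serpinb5 window, chr1:106860925-106861224 on the plus strand, holds 1 match 23 bases before the start. The Ada window, chr2:163750190-163750489 on the minus strand, holds 2 matches, 178 and 142 bases before it.

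Over the called genes the motif was found at shares close to that of all genes. One window a gene was searched on both strands, the most upstream one listed. CAGGTG was found in 10 of the 64 called rises with a window (15.6%) and in 12 of the 71 called falls (16.9%), against 3025 of all 15691 genes with a window (19.3%). CAGGTA, a related E-box that differs in its last base and so shares no match, was found in 3 rises (4.69%) and 7 falls (9.86%), against 9.85% of all genes. The median GC content of the windows was 57.3% for rises, 60.3% for falls and 57.0% for all genes. Nav2, Tmem121, Dnmt1 and Keap1 among the named falls and Fam183b among the named rises also held CAGGTG. Hc, Trpm1, Il4ra, Tnf, Dock8, Gimap6 and Gimap4 held none in this window.

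Zeb1 partner genes and the epithelial and mesenchymal programmes gave few calls. Of 21 measured probe sets for Zeb1 and its corepressors 3 fell, Zeb1, Dnmt1 and Smarca4, and 0 rose. Dnmt1, the maintenance DNA methyltransferase, was at 13.48, 13.00 and 13.60 in Scr and at 12.38, 12.29 and 11.74 in shZeb1_D (-1.22 ± 0.22, limma adjusted p = 0.0458, and 0.238 without Scr replicate 9). Smarca4, the ATPase BRG1 of the SWI/SNF chromatin remodeller, was at 14.33, 14.25 and 14.58 and then at 13.42, 13.47 and 13.42 (-0.95 ± 0.14, adjusted p = 0.0230). The groups did not overlap for either gene, as for every call. Both lie on a part of chromosome 9 where neighbouring genes were lower together, by medians of 0.63 and 0.65 for the genes around them, described below.

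Of 39 genes of epithelial adhesion and polarity 0 were called, with a median log2 fold change of 0.13, and only 9 of them lay above the median level. That median was 0.04 after subtracting array medians and 0.03 after quantile normalizing again. Cdh1, E-cadherin, the best known target of Zeb1, was at 6.57, 6.31 and 6.30 in Scr and at 6.23, 6.84 and 6.62 in shZeb1_D, so the groups overlapped at a level that may be background. Its log2 fold change was 0.17 ± 0.20. Of 31 mesenchymal and matrix genes 2 fell and 0 rose. Spock2, a secreted proteoglycan, was at 8.51, 8.19 and 9.09 and then at 7.13, 6.52 and 6.68 (-1.82 ± 0.25, limma adjusted p = 0.0188), with the shZeb1_D mean under the median level. Agrn, the matrix protein agrin, fell by 1.38 ± 0.20 to shZeb1_D levels of 5.49 to 5.97, under the median level. Vim, the mesenchymal filament vimentin, changed by -0.29 ± 0.28 and Mmp9, a matrix metalloprotease, by -0.25 ± 0.13, and neither passed the test. Mmp9, at 4.73 to 4.92 in Scr, lay under the median level and may be background. The median of the mesenchymal list was 0.05, and -0.04 after subtracting array medians or quantile normalizing again. Tle3, a Groucho-family corepressor that was not in a list and is named after its value was seen, fell by 1.58 ± 0.22.

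**Figure D2:**
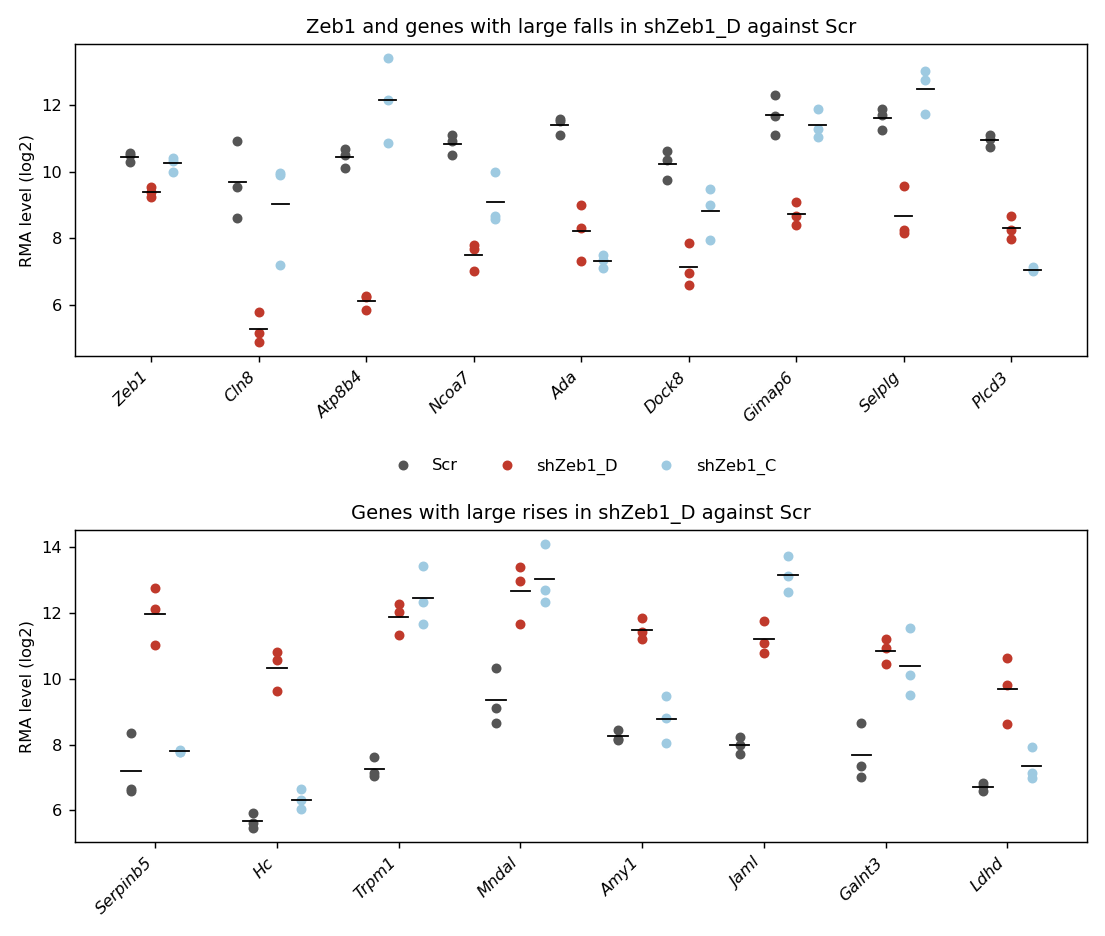
RMA level (vertical axis, log2) on each array for Zeb1 with 8 genes of large falls (top) and 8 genes of large rises (bottom). Dark points are Scr, red shZeb1_D and light blue shZeb1_C, with a bar at each mean of 3 arrays; for every gene the 3 red points lie beyond the 3 dark points, while the light blue points lie with Scr for some genes (Hc, mean 6.33) and with shZeb1_D for others (Trpm1, mean 12.45).

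Selplg and Jaml, genes of leukocyte rolling and adhesion, changed in opposite directions. Selplg encodes PSGL-1, the ligand through which leukocytes roll on selectins. It was at 11.26, 11.89 and 11.70 in Scr and at 8.17, 9.57 and 8.25 in shZeb1_D, a fall to 12.9% of Scr (-2.95 ± 0.43, limma adjusted p = 0.0224, and 0.125 without Scr replicate 9). Replicate 14 was the highest of the shZeb1_D arrays and the groups stayed apart, as for every call. Jaml encodes a junctional adhesion molecule of leukocytes that binds an epithelial receptor. It was at 8.22, 7.72 and 8.00 in Scr and at 11.08, 11.75 and 10.76 in shZeb1_D (3.22 ± 0.32, limma adjusted p = 0.00634). Jaml rose although the genes around it on chromosome 9 had a median change of -0.49. S1pr1, the sphingosine-1-phosphate receptor that lets lymphocytes leave tissues, rose by 1.70 ± 0.23, from Scr levels of 5.57 to 6.17 to shZeb1_D levels of 7.30 to 8.03. Its Scr levels lay under the median level and may be background, and the genes around it had a median change of 0.39. Of 36 rolling, homing and integrin genes Jaml was the 1 that rose and Selplg the 1 that fell.

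Among regulators of the actin skeleton and of cell movement, Dock8 and Nav2 fell and Mylip rose. Dock8, an activator of the GTPase Cdc42 that keeps migrating lymphocytes intact, was at 9.75, 10.36 and 10.64 in Scr and at 6.60, 7.87 and 6.95 in shZeb1_D (-3.11 ± 0.45, limma adjusted p = 0.0210). Nav2, a microtubule-associated navigator protein, was at 12.08, 11.79 and 12.47 and then at 9.51, 10.62 and 9.15 (-2.35 ± 0.35, adjusted p = 0.0224). Neither gene overlapped between groups, as for every call, while the shZeb1_C mean of Nav2 was 14.64, above Scr. Mylip, a ubiquitin ligase that binds myosin light chain and degrades the LDL receptor, rose by 1.73 ± 0.24. Those 3 were the calls among 49 genes of this list, 1 higher and 2 lower, with a median of -0.16. Outside the lists, and named after their values were seen, Tpm1 (tropomyosin) fell by 1.46 ± 0.27, Tmod2 (tropomodulin) by 1.45 ± 0.26, Peak1 by 1.63 ± 0.29 and Shtn1 (shootin) by 2.49 ± 0.29. The genes around Tpm1, Peak1 and Shtn1 were lower too, with median changes of -0.495, -0.43 and -0.457, against -0.095 around Tmod2. Tns1, the focal adhesion protein tensin, rose by 2.72 ± 0.41, Rai14 by 2.38 ± 0.35 and the embryonic myosin light chain Myl4 by 1.81 ± 0.22. The Scr means of Tns1 and Rai14, 6.12 and 6.04, lay under the median level and may be background. Stk4, the Hippo kinase MST1 that lymphocytes need for survival and trafficking, was at 11.48, 12.18 and 12.58 and then at 9.78, 10.39 and 9.59 (-2.16 ± 0.31). It lies in a stretch of chromosome 2 whose genes had a median change of -0.75.

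Among cytokines and their receptors, Tnf and Il4ra were lower. Tnf, the inflammatory cytokine, was at 7.87, 8.82 and 7.59 in Scr and at 5.53, 6.0 and 6.46 in shZeb1_D (-2.10 ± 0.35, limma adjusted p = 0.0326), and the shZeb1_D levels lay under the median level. It was the 1 call among 32 cytokines that act on T cells and the 1 call among 35 genes of NF-kB and inflammation. Ltb, lymphotoxin beta, a TNF-family ligand of lymphocytes, fell by 1.13 ± 0.18 from levels of 14.56 to 14.81 to levels of 13.25 to 13.76. Tnfrsf26, a TNF receptor family member, fell by 1.92 ± 0.32. These TNF-family genes did not overlap between groups, as for every call. The calls of Tnf, Ltb and Tnfrsf26 were lost with 8, 6 and 5 of the 9 arrays left out in turn. Il4ra, the receptor chain shared by interleukin-4 and interleukin-13, was at 11.49, 10.71 and 11.97 and then at 9.36, 8.57 and 8.97 (-2.42 ± 0.34, limma adjusted p = 0.0205). It was the 1 call among 34 cytokine receptor chains.

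Downstream of such receptors 0 of 27 JAK-STAT and SOCS genes passed the test, while 22 of the 27 had a negative log2 fold change and their median was -0.39. Over all probe sets 8615 of 19572 were negative, and 54.9% of those above the median level, where 20 of the 27 lay. The list median was -0.48 after subtracting array medians and -0.29 after quantile normalizing again. The mean level of the list on shZeb1_D replicate 13, 8.97, was close to the 8.98 of Scr replicate 7. Replicates 14 and 15 were at 8.54 and 8.63, against 8.98 to 9.28 in Scr. Socs1, a feedback inhibitor, had a value of -0.54 ± 0.16 (adjusted p = 0.187) and the kinase Pim1 one of -0.75 ± 0.22 (adjusted p = 0.196). Socs1, at 6.07 to 6.35 in Scr, lay under the median level and may be background. Dusp6, the phosphatase that switches off ERK and rises with ERK activity, was at 15.04, 14.72 and 15.04 in Scr and at 13.57, 13.52 and 13.61 in shZeb1_D. It fell by 1.37 ± 0.17 (limma adjusted p = 0.0103), and the 3 shZeb1_D arrays lay within 0.09 of each other. Pde4b, which degrades cyclic AMP, rose by 1.53 ± 0.23. Pkig, an inhibitor of the cyclic AMP-dependent kinase, fell by 1.83 ± 0.26, and Gnas, the stimulatory G protein subunit, fell by 1.23 ± 0.18, both from the same stretch of chromosome 2. Gpsm3, a modulator of G protein signalling in leukocytes, fell by 1.78 ± 0.27. Ppp3cc, a catalytic subunit of the phosphatase calcineurin, was at 8.04, 9.15 and 8.11 and then at 10.67, 11.28 and 11.53 (2.73 ± 0.37, adjusted p = 0.0188). It was the only call among 40 genes of T cell receptor-type signalling, whose median was -0.08.

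Of the genes fixed for their bearing on the question, Tnf, Il4ra and Selplg were called, as described above. Arg1, Tgfb1, Cd274, Il6, Kit and Myc were not. Arg1, the arginine-degrading enzyme of suppressive myeloid cells, was at 10.65, 12.15 and 11.25 in Scr and at 7.69, 9.77 and 8.42 in shZeb1_D. The groups did not overlap, but the log2 fold change of -2.72 ± 0.69 had a limma adjusted p of 0.132. Tgfb1 was at 12.72, 12.94 and 12.88 and then at 11.57, 12.15 and 11.11 (-1.24 ± 0.28, adjusted p = 0.104), also without overlap, and 0 of 31 TGF-beta and SMAD genes were called. Ccr2, a receptor for monocyte chemokines, was at 8.47, 7.38 and 8.52 and then at 4.90, 4.85 and 4.99 (-3.21 ± 0.79, adjusted p = 0.122), and 0 of 38 chemokines and receptors were called. The fit takes its spread from all 9 arrays, and Ccr2 ran from 4.33 to 8.14 in shZeb1_C. Cd274, the checkpoint ligand PD-L1, changed by 0.04 ± 0.30, Il6 by 0.15 ± 0.22, Kit by -0.25 ± 0.30 and Myc by -0.003 ± 0.451. Il6, at 4.95 to 5.55 in Scr, and Kit, at 5.26 to 5.77, lay under the median level in both groups. Their levels may be background, so a change in them may not be seen here. Of 36 checkpoint and costimulation genes only Lgals9, galectin-9, a ligand of the T cell inhibitor TIM-3, was called. It rose from levels of 9.25 to 9.64 to levels of 10.44 to 10.77 (1.19 ± 0.18, adjusted p = 0.0230). Of 32 antigen presentation genes and of 41 myeloid differentiation genes 0 were called, and only 7 of the latter lay above the median level.

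Gimap6, Gimap4 and Gimap8, 3 of the GIMAP GTPases, fell. These small GTPases of immunity-associated protein lie side by side on chromosome 6 and are known for keeping lymphocytes alive. Of 8 measured members these 3 fell and 0 rose. The other 5 were not called, with adjusted p of 0.0987 for Gimap5, 0.140 for Gimap7, 0.238 for Gimap1, 0.366 for Gimap3 and 0.428 for Gimap9. All 8 had a negative value, with a median of -1.47. That median was -1.56 after subtracting array medians and -1.35 after quantile normalizing again. Gimap6 was at 11.10, 11.69 and 12.32 in Scr and at 8.66, 9.11 and 8.41 in shZeb1_D (-2.98 ± 0.34, limma adjusted p = 0.00856, and 0.0572 without shZeb1_D replicate 15). Gimap4 was at 11.02, 11.96 and 11.96 and then at 9.02, 10.21 and 8.95 (-2.25 ± 0.37, adjusted p = 0.0326, and 0.184 without Scr replicate 9). Gimap8 was at 11.02, 10.23 and 11.00 and then at 9.27, 8.92 and 8.87 (-1.73 ± 0.32, adjusted p = 0.0460, and 0.238 without Scr replicate 9). In 6 of the 8 the highest shZeb1_D array lay below the lowest Scr array, as it did for 1302 of all 19572 probe sets (6.65%). Gimap3 and Gimap9 were the exceptions, where shZeb1_D replicate 14, at 9.17 and 13.47, lay among the controls. The mean level of the family was 8.68, 9.59 and 8.68 on shZeb1_D replicates 13, 14 and 15, against 10.14 to 10.99 in Scr and 10.19 to 10.61 in shZeb1_C. The genes around the cluster did not move with it, with medians of 0.02 to 0.09 for the neighbourhoods of the 8.

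**Figure D3:**
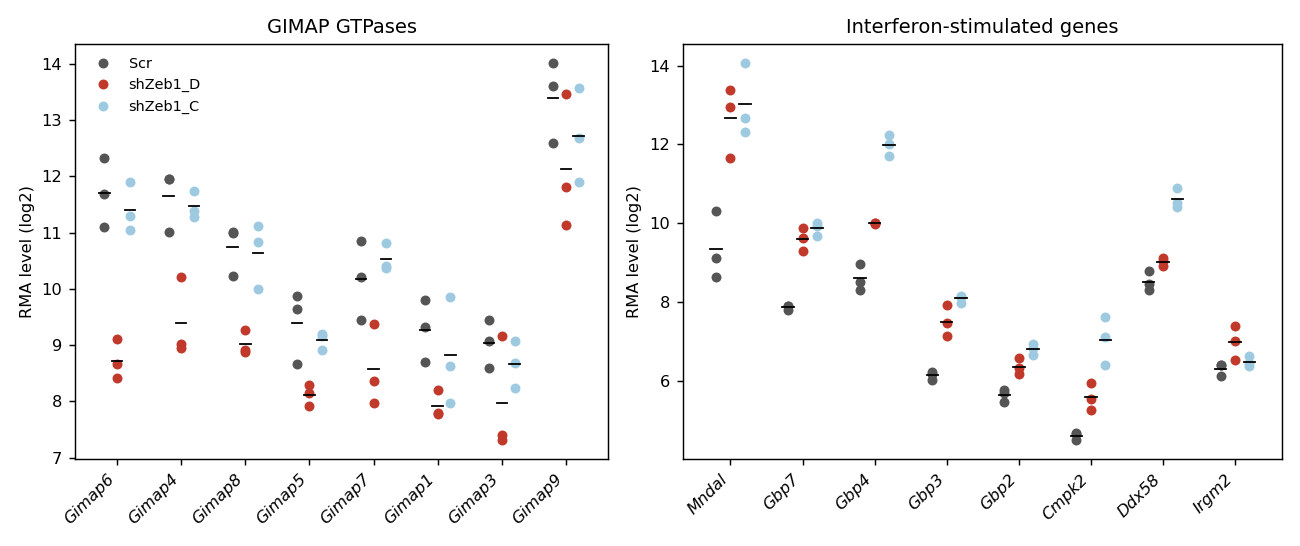
RMA level (vertical axis, log2) on each array for the 8 GIMAP GTPases (left) and for 8 interferon-stimulated genes with the smallest adjusted p in their list (right), with Scr dark, shZeb1_D red, shZeb1_C light blue and a bar at each mean of 3 arrays. In the left panel the red points lie below the dark points for 6 genes and overlap for Gimap3 and Gimap9, and in the right panel the red points lie above the dark points for each gene.

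Gbp7, Gbp4, Gbp3 and Mndal rose among the interferon-stimulated genes. Of 55 measured members of that list these 4 rose and 0 fell, with a median of 0.20. The median was 0.11 after subtracting array medians and 0.15 after quantile normalizing again. In shZeb1_C against Scr 10 members of the list rose and 0 fell, with a median of 0.34. Over all 19572 probe sets 129 rose in that comparison, which uses the same Scr arrays and so is not independent. Gbp7, Gbp4 and Gbp3 encode guanylate-binding proteins, GTPases that attack intracellular pathogens. Gbp7 was at 7.81, 7.90 and 7.90 in Scr and at 9.64, 9.29 and 9.89 in shZeb1_D (1.74 ± 0.18, limma adjusted p = 0.00634). Gbp4 was at 8.52, 8.32 and 8.97 and then at 9.99, 10.02 and 10.00 (1.40 ± 0.20, adjusted p = 0.0210), and its shZeb1_C mean was 11.99. Gbp3 rose by 1.35 ± 0.20 from Scr levels of 6.03 to 6.24, under the median level. Gbp7 and Gbp3 lie in a part of chromosome 3 with a median change of 0.32 around them, and Gbp4 lies elsewhere, with -0.04 around it. Mndal, a DNA-binding protein of the interferon-inducible p200 family, was at 8.65, 10.32 and 9.11 and then at 11.65, 13.39 and 12.95 (3.30 ± 0.61, adjusted p = 0.0463, and 0.230 without Scr replicate 9). In 14 of the 55 the 3 shZeb1_D arrays were all higher than the 3 of Scr and in 0 all lower, against 10.3% and 6.65% of all probe sets. Of the uncalled, the RNA sensor Ddx58 had a value of 0.51 ± 0.18 (adjusted p = 0.274). Aim2, a p200-family sensor of cytosolic DNA that lies outside the list and is named after its value was seen, fell by 1.42 ± 0.20, from levels of 9.90 to 10.09 to levels of 8.24 to 8.77. Apobec1, a cytidine deaminase of messenger RNA, rose by 2.23 ± 0.27.

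Atp8b4 and Plcd3, genes of membrane lipids, fell. Atp8b4, a flippase that moves phospholipids across membranes, was at 10.13, 10.70 and 10.50 in Scr and at 6.27, 6.23 and 5.85 in shZeb1_D. The difference was -4.33 ± 0.52 (limma adjusted p = 0.0103, and 0.0706 without shZeb1_D replicate 15). Its shZeb1_D levels lay under the median level and may be background, while its shZeb1_C mean was 12.16. Plcd3, a phospholipase C that cleaves phosphoinositides, was at 11.00, 11.12 and 10.76 and then at 7.98, 8.66 and 8.26 (-2.66 ± 0.19, adjusted p = 0.00169). Its call held whichever array was left out. Cers4, a ceramide synthase, rose by 0.96 ± 0.17, and with S1pr1 it makes 2 rises and 2 falls among 47 genes of sphingolipids, flippases and phospholipases, with a median of -0.05. Plin2, the coat protein of lipid droplets, fell by 2.00 ± 0.31 to shZeb1_D levels of 5.69 to 6.36, under the median level, and was the 1 call among 41 genes of cholesterol and fatty acid metabolism. Cln8, an endoplasmic reticulum protein that sends enzymes towards the lysosome, was at 9.55, 8.62 and 10.92 and then at 4.88, 5.79 and 5.17 (-4.42 ± 0.78, adjusted p = 0.0416). Its shZeb1_D levels may be background too, so its rank among the falls is not defined. Its Scr arrays span 2.30 and its call was lost with 8 of the 9 arrays left out in turn. It was the 1 call among 41 lysosome and autophagy genes, whose median was -0.22.

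Enzymes of small-molecule metabolism changed one at a time. Ldhd, the mitochondrial dehydrogenase of D-lactate, was at 6.83, 6.75 and 6.59 in Scr and at 8.62, 10.61 and 9.80 in shZeb1_D (2.95 ± 0.44, limma adjusted p = 0.0230). Its Scr levels lay under the median level and may be background. Ldhd was the 1 call among 39 genes of glycolysis and hypoxia, of which 30 were negative with a median of -0.24. In that list Pkm, pyruvate kinase, shows how shZeb1_D replicates differed, at 15.55, 13.14 and 13.37 on replicates 13, 14 and 15, against 15.93, 14.69 and 15.98 in Scr. Its value of -1.51 ± 0.80 was not called (adjusted p = 0.449). Ada, the enzyme that removes adenosine and protects lymphocytes from its toxic metabolites, was at 11.12, 11.59 and 11.53 and then at 7.31, 9.02 and 8.31 (-3.20 ± 0.37, adjusted p = 0.00893). It fell more than the chromosome 2 genes around it, whose median change was -0.67, and it was the 1 call among 32 genes of nucleotide, adenosine and arginine metabolism. Aass, a lysine-degrading enzyme named after its value was seen, fell by 1.26 ± 0.14. Crot, a peroxisomal carnitine acyltransferase, rose by 1.66 ± 0.21, and Prkag2, a regulatory subunit of the energy sensor AMPK, rose by 1.38 ± 0.25, both from a stretch of chromosome 5. Abcb1a and Abcb1b, the mouse P-glycoproteins that pump drugs out of cells, lie in that stretch too. Abcb1a was at 10.75, 10.14 and 10.86 and then at 13.51, 12.73 and 13.08 (2.52 ± 0.25, adjusted p = 0.00634), and Abcb1b rose by 1.90 ± 0.25. The genes around them had median changes of 1.05 and 1.01. The shZeb1_C means of Abcb1a and Abcb1b were 13.52 and 14.52, also above Scr. Around them the median changes in shZeb1_C against Scr were 0.033 and 0.027. Keap1, the adaptor that marks the antioxidant factor Nrf2 for degradation, fell by 0.85 ± 0.15 in a chromosome 9 stretch at -0.67. Those 3 were the calls among 39 genes of drug efflux and detoxification.

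Glycosylation, channels and other cell surface functions gave single calls. St6gal1, which caps N-glycans with sialic acid, fell by 1.15 ± 0.20, and with Galnt3 it was called among 44 genes of protein glycosylation. Chst11, a chondroitin sulfotransferase, fell by 1.74 ± 0.32 and Dpagt1, the first enzyme of N-glycan assembly, by 1.23 ± 0.21; both are named after their values were seen. Trpm1, a cation channel known from melanocytes and retinal bipolar cells, was at 7.15, 7.61 and 7.04 in Scr and at 12.03, 12.26 and 11.32 in shZeb1_D (4.60 ± 0.42, limma adjusted p = 0.00634). It was the 1 call among 43 ion channel and calcium genes, and its shZeb1_C mean was 12.45. Ptpn12, the tyrosine phosphatase PTP-PEST, was at 11.05, 11.10 and 10.82 and then at 13.40, 12.82 and 13.24 (2.16 ± 0.19, adjusted p = 0.00529), in the chromosome 5 stretch. Clock, a core factor of the circadian oscillator, was at 11.23, 11.93 and 11.55 and then at 13.76, 14.15 and 13.85 (2.35 ± 0.26, adjusted p = 0.0081). Rora, a nuclear receptor that drives clock genes and Th17 differentiation, fell by 1.40 ± 0.25 from 9.68 to 9.76 in Scr to 7.74 to 8.65. Ncoa7, an oxidation resistance protein that binds nuclear receptors, was at 10.52, 10.92 and 11.11 and then at 7.68, 7.79 and 7.01 (-3.36 ± 0.38, adjusted p = 0.00856). Bmp7, a TGF-beta family ligand, fell by 1.73 ± 0.29. H2al1a, H2al1e, H2al1f and H2al1o, X-linked histone H2A variants known from the testis, fell, with log2 fold changes of -2.76 to -2.42. The shZeb1_D means of H2al1e and H2al1o, 5.92 and 4.31, and the Scr mean of H2al1o, 6.73, lay under the median level and may be background. H2al1a and H2al1f had equal values on every array, so these near-identical copies cannot be counted as separate measurements.

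Among lists of proliferation and growth genes 1 member, Aurka, was called. These lists hold bright genes, and 54.9% of all probe sets above the median level had a negative value. Of 42 mitosis genes 1 fell, 0 rose and 31 were negative, with a median of -0.33. That median was -0.42 after subtracting array medians and -0.21 after quantile normalizing again. The mean level of the list on shZeb1_D replicate 13, 11.802, lay within the Scr range of 11.785 to 12.232. Replicates 14 and 15 were at 11.602 and 11.567. Aurka, the kinase of the spindle poles, was at 10.80, 10.64 and 11.25 in Scr and at 9.29, 9.21 and 8.93 in shZeb1_D (-1.75 ± 0.22, limma adjusted p = 0.0110), within a chromosome 2 stretch at -0.71. Mybl2, a transcription factor of the G2 phase that lies on the same chromosome, fell by 1.89 ± 0.26. Of 47 DNA replication and S phase genes 0 were called, with 33 negative and a median of -0.22, or -0.31 and -0.16 under those scalings. Tyms, thymidylate synthase, had the largest positive value among them, 0.99 ± 0.23 (adjusted p = 0.112). Of 35 DNA repair genes, of 40 p53 and apoptosis genes and of 37 stem cell and leukaemia regulators 0 were called. Ribosome biogenesis had 0 calls of 41, 35 negative values and a median of -0.24, or -0.32 and -0.17 under those scalings. Its mean level on shZeb1_D replicate 13, 12.85, lay within the Scr range of 12.70 to 13.12, and replicates 14 and 15 were at 12.49 and 12.37. Heat shock and the unfolded protein response had 0 of 35, 28 negative values and a median of -0.20, or -0.29 and -0.13, with Xbp1, its transcription factor, at -0.81 ± 0.18 (adjusted p = 0.0861). The 47 cytosolic ribosomal proteins had a median of -0.03, or -0.12 and -0.03, and the 55 respiratory chain genes one of 0.01, or -0.07 and 0.02, with 0 calls in each. Over all probe sets the median was 0.04, or -0.04 and 0.004, and over those above the median level it was -0.05.

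**Figure D4:**
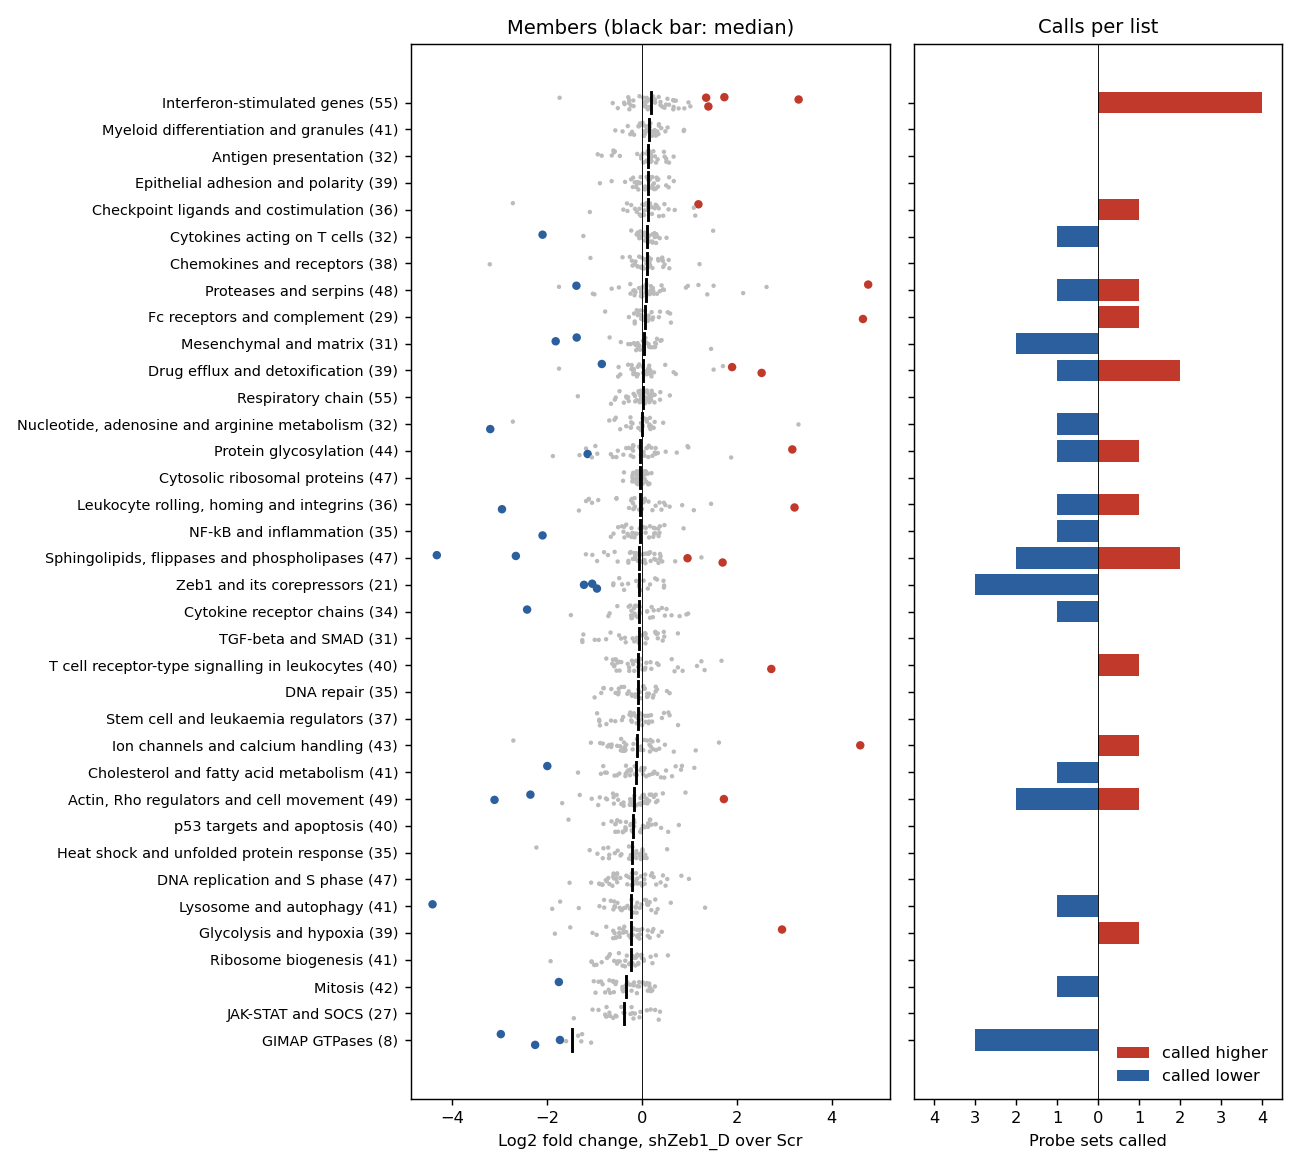
Log2 fold change of shZeb1_D over Scr for the members of 36 gene lists (left, number of probe sets in brackets, black bar at the median) and the number of members called higher (red, to the right) or lower (blue, to the left) in each list (right). The GIMAP list has the lowest median (-1.47) with 3 falls, the interferon-stimulated list has the highest median (0.20) with 4 rises, and most other lists hold between 0 and 2 calls.

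The calls were spread unevenly over the genome. For each gene the median change of up to 25 brighter genes on either side, itself left out, was taken as the shift of its neighbourhood. It passed 0.3 in size for 2054 probe sets, 10.5% of those tested, and 64 of the 165 calls (38.8%) lay there. Of the 26 rises among them 25 lay in neighbourhoods shifted up, Jaml being the exception, and of the 38 falls 37 lay in neighbourhoods shifted down, Olfm3 being the exception. On chromosome 5, 21 of 1143 probe sets were called higher and 4 lower, and 19 of the rises had shifted neighbours. They include Abcb1a, Abcb1b, Ptpn12, Fam185a (2.82 ± 0.34), Armc10 (1.92 ± 0.20), Rundc3b, Crot, Slc25a40, Krit1, Ankib1, Dmtf1 and Cdk5. On chromosome 2, 20 of 1638 were called lower and 18 of these had shifted neighbours. Ada, Pkig, Stk4, Tomm34, Zfp64, Aurka, Rab22a, Cstf1, Prelid3b, Bmp7, Ctsz, Gnas, Ncoa3 and Mybl2 are among them. On chromosome 9, 18 of 1132 were called lower, 16 with shifted neighbours, Dnmt1, Smarca4, Keap1, Tle3, Rora, Tpm1 and Acp5 among them. Chromosome 3 held 10 rises and 1 fall. Chromosome 19 held 6 falls, 3 of them with shifted neighbours. The stretches were also compared between shZeb1_C and Scr. There the neighbourhood shifts on chromosome 2 were -0.54 for Ada and -0.84 for Aurka. On chromosome 9 they were -0.56 for Dnmt1 and -0.41 for Smarca4, so these stretches were lower than Scr with both hairpins. Both comparisons subtract the same Scr arrays, so the 2 results are not independent. The shift was 0.03 for Abcb1a on chromosome 5 and 0.04 for Gbp7 on chromosome 3. When genes of shifted neighbourhoods were left out before the fit, 65 genes were called, 32 higher and 33 lower. The DNA copy number of these cells was not measured in the files used here.

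**Figure D5:**
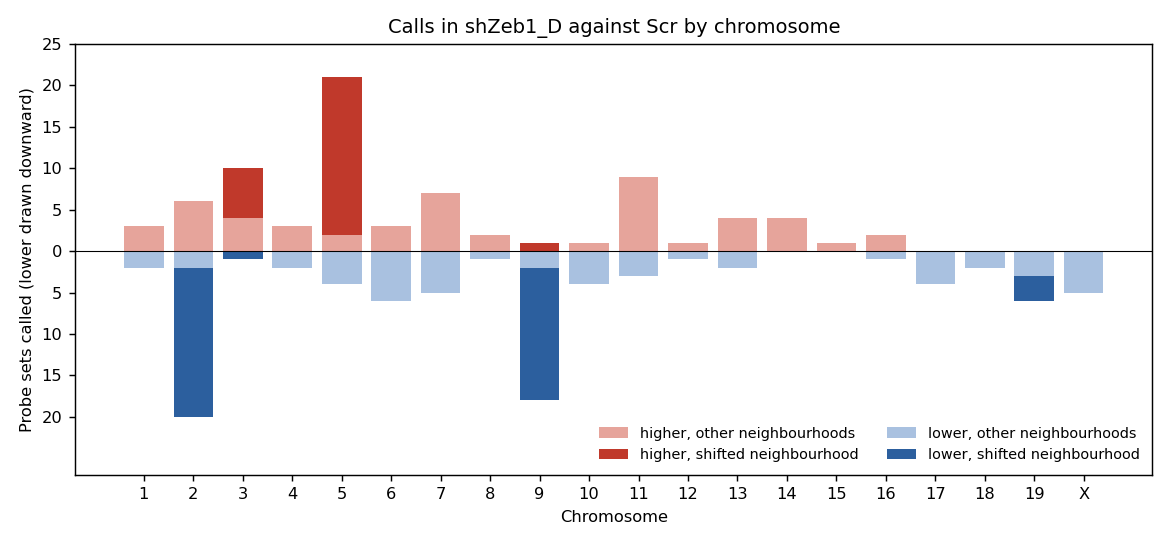
Number of probe sets called higher (upward bars) or lower (downward bars) in shZeb1_D against Scr on each chromosome, with the part whose neighbourhood shifted by over 0.3 (log2) in the darker colour. Chromosome 5 carries 21 rises, and chromosomes 2 and 9 carry 20 and 18 falls, most of them in the darker colour.

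The other hairpin gave a second comparison for the same genes. Compared directly, 166 probe sets (0.848% of those tested) differed between shZeb1_D and shZeb1_C. Both comparisons of shZeb1_D share the shZeb1_D arrays, so their calls are not independent and only the values are given side by side. Zeb1 differed between the hairpins by -0.85 ± 0.16, short of the threshold at a limma adjusted p of 0.0560. Hc, Serpinb5 and Amy1 were higher in shZeb1_D than in shZeb1_C by 4.0, 4.17 and 2.71, so these rises were not matched at that size in shZeb1_C. Atp8b4, Nav2 and Selplg were lower in shZeb1_D than in shZeb1_C by 6.04, 4.88 and 3.84. For Trpm1, Mndal, Galnt3 and Gbp7 the differences between hairpins were -0.58, -0.36, 0.47 and -0.27, and none passed the test. For Ada, Spock2 and Plin2 among the falls they were 0.89, 0.34 and -0.28, also not called. Gimap6 and Gimap4 were lower in shZeb1_D by 2.68 ± 0.34 and 2.07 ± 0.37, the 2 members of that family called between the hairpins. The call count between hairpins was 49 without shZeb1_D replicate 15, and 62 and 84 without shZeb1_C replicates 10 and 11.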

How the data were processed

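Biotin-labelled total RNA of C1498 cells was measured on 9 arrays, 3 each for Scr, shZeb1_C and shZeb1_D. The authors deposited linear signal intensities, made with RMA and the Transcriptome Analysis Console per the submitters' processing notes, which give no version of either. The deposited intensities lacked their decimal point. It was restored in all 199854 cells by requiring a log2 value that is a multiple of 0.01, within 1e-06 steps. Accepted values were at most 1.1e-12 steps off that grid, and rejected placements at least 0.036. The restored log2 values ran from 3.26 to 17.44.

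Of 22206 probe sets 19572 had 1 symbol, 0 had several and 2634 are unnamed here. Symbols and gene order came from RefSeq (GRCm38.p6), where all 19572 matched by gene identifier. The sources used here do not give the build of the array, and Zeb2 was not analysed here.

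limma 3.58.1 in R 4.3.3 was fitted to the log2 values of all 9 arrays with a mean per group, empirical Bayes moderation and Benjamini-Hochberg adjustment over 19572 probe sets, with calls at an adjusted p under 0.05. The fit was tested on simulated data with independent noise on each array. Those data lack the shared within-group component described above, so the test does not cover it. No pair of arrays held identical values, and the number of arrays limits the precision. Replicate numbers do not repeat between groups, so none pairs the samples. Members, the 36 function lists and the 7 marker lists were chosen with earlier results of these data known. The text names Zeb1, 12 fixed genes, up to 20 rises and 20 falls of largest size among called genes separated in 3 of 3 arrays with a higher group mean over the median level, up to 4 called members a list, and the 2 leading members of a list without calls. Predicted, olfactory, vomeronasal and small RNA genes were not named by this rule, and other genes are named after their values were seen. The choice of 1 promoter window a gene was made after the windows were seen. Other settings changed the arrays in the fit, the level filter, the normalization, the variance prior, array weights, the threshold, probe sets per gene, unnamed probe sets, shifted neighbourhoods and each array in turn.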

Additional observations from a re-analysis of the deposited data

Results flagged for a closer look

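A direct test between the hairpins in limma set 19 of the named genes apart, given here as the log2 level in shZeb1_D minus that in shZeb1_C. The genes that fell against Scr and were also lower than in shZeb1_C were Atp8b4 (-6.04), Nav2 (-4.88), Selplg (-3.84), Olfm3 (-3.51), Cnrip1 (-3.25), Shtn1 (-3.07), Gimap6 (-2.68) and Gimap4 (-2.07). Plcd3 fell against Scr and was 1.24 higher than in shZeb1_C. The genes that rose against Scr and were also higher than in shZeb1_C were Serpinb5 (4.17), Hc (4.0), Amy1 (2.71), Fam185a (2.33), Rai14 (1.92), Clock (1.76), Apobec1 (1.70) and Prss16 (1.64). Gbp4 and Jaml rose against Scr and had differences of -1.99 and -1.95 from shZeb1_C. These genes were selected on the shZeb1_D arrays that the test also uses. Outside the named probe sets, 5 of the 2634 unnamed probe sets passed the threshold in shZeb1_D against Scr when all probe sets were fitted together, 2 higher and 3 lower.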

How the results depend on the processing

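The direction of every named call held in each setting tried, and the side of the threshold did not. Against Scr, 165 calls (78 higher, 87 lower) became 68 (34 and 34) with only the 6 arrays of the comparison, 1076 (486 and 590) with array weights, 300 (141 and 159) at an adjusted p under 0.1, 24 (13 and 11) under 0.01, and 65 (32 and 33) without shifted neighbourhoods, where fewer genes were tested. With a trend in the variance prior 56 were lower. Leaving out single arrays gave 14 to 213 calls, 10 to 105 higher and 3 to 108 lower. Between the hairpins 166 calls became 833 with array weights, 313 under 0.1 and 50 under 0.01, and 49 to 162 with single arrays left out. Zeb1 stayed at -1.05 but missed the threshold with 6 arrays (adjusted p = 0.0626), with the trend (0.0904) and at 0.01 (0.0263). It ran from -1.13 to -0.98 with single arrays left out. Of 60 named calls 34 held with 6 arrays, 54 after quantile normalizing again and 15 at 0.01. With single arrays left out 10 to 59 held, the 10 without Scr replicate 9 and also without shZeb1_D replicate 15, and 8 held in all 9 such fits. The cause of these shifts was not tested. No paired analysis was possible because the groups share no replicate numbers. Genes under the median level may be near background, and 17 of the falls and 16 of the rises had a group mean there.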

Other observations

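Other called genes outside the lists are named here after their values were seen. Fbxo27, a ubiquitin ligase subunit that reads sugar chains, rose by 2.01 ± 0.22 from Scr levels of 5.14 to 5.69, under the median level. Uchl3, a ubiquitin hydrolase, rose by 0.87 ± 0.14 from Scr levels of 14.51 to 14.87. Arih1, another ubiquitin ligase, fell by 1.16 ± 0.19. Rexo2, an oligoribonuclease, fell by 0.82 ± 0.14, Ddx10, an RNA helicase, by 1.34 ± 0.20 and Mrpl4, a mitochondrial ribosomal protein, by 1.05 ± 0.19. Arih1, Rexo2, Ddx10 and Mrpl4 had neighbourhood shifts of -0.52, -0.43, -0.44 and -0.69.

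Rab22a, an endosomal GTPase, fell by 1.64 ± 0.16 and stayed called whichever array was left out, and Snx9, an endocytic sorting nexin, fell by 1.66 ± 0.29. Rab37 rose by 1.43 ± 0.24. Tbc1d7, a subunit of the TSC complex that restrains mTORC1, rose by 1.76 ± 0.30, and Sirt2, a deacetylase, rose by 1.13 ± 0.20. Kremen1, a receptor for the Wnt inhibitor Dkk1, fell by 0.85 ± 0.15.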
